A study of Saccharomyces cerevisiae with 7 samples.

Results

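Budding yeast treated with rapamycin for 4 h was set against yeast from saturated cultures, gene by gene and intron by intron. The comparison rests on 3 of the 7 libraries: 1 of rapamycin at 4 h and 2 of saturated culture. For rapamycin, cells were grown for 4 h from a seeding OD600 of 0.2 into early log phase, collected on a filter and moved into fresh synthetic complete medium with 100 nM rapamycin, where they stayed for 4 h. Saturated cultures were left in their own medium from the same seeding density until growth had stopped, and no OD600 at harvest is given for them. The 2 log-phase libraries, harvested at an OD600 of 0.5, stand as the common starting state. Libraries of rapamycin at 1 h and of a lawn were in the same fit, but with 1 library each they add no replicate spread. All groups are BY4741, haploid laboratory yeast of mating type a with deletions at HIS3, LEU2, MET17 and URA3, grown at 30 °C without any other agent. No library of cells moved to fresh medium without rapamycin was analysed here, so the drug and the change of medium cannot be told apart.

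TOR complex 1 is a kinase that promotes ribosome production and restrains starvation programmes while nutrients are plentiful. Rapamycin, bound to the small protein Fpr1, inhibits that complex. A culture that saturates is in general held to lose TOR activity too, but also to exhaust nutrients and gather ethanol and acids. Rapamycin in fresh medium does not by itself impose these. The libraries measure RNA only, so TOR activity, glucose and other nutrients at harvest are not known here. Genes that differ between both states are therefore the interest of the comparison, and the series is concerned with introns that persist after excision when growth stops.

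RNA was depleted of ribosomal RNA, fragmented and read as short fragments, so introns were read along with mature RNA. Gene reads numbered 6781835 in the rapamycin library, 4665149 and 1019287 in saturated replicates 1 and 2, and 6714865 and 1875036 in the log-phase pair. The 10 most abundant genes took 9.40% of gene reads with rapamycin, against 21.6% and 26.1% at saturation. Saturated replicates differed from each other more than log-phase ones (median absolute log2 difference 0.43 and 0.24), and 814 genes differed more than 2-fold between the saturated pair. Of the 4 genes deleted in whole or part in this strain, LEU2 had no reads in these 5 libraries. MET17 had 0 reads with rapamycin, 12 and 3 at saturation and 0 and 1 in log phase, and URA3 had 44 reads with rapamycin, 3 and 0 at saturation and 1 and 0 in log phase. HIS3, whose deletion in BY4741 is known to be partial, had 1230 reads with rapamycin, 2012 and 248 at saturation and 492 and 126 in log phase. The source of the reads at these 3 genes was not tested. The 6 genes of mating type a summed to 967 CPM with rapamycin, 285 and 200 CPM at saturation and 1430 and 2120 CPM in log phase, and the 5 genes of mating type alpha to between 41 and 78.5 CPM in every one of these libraries. CPM here means counts per 1000000 reads after TMM scaling, a share of the RNA in a library. In such bulk samples, fewer cells with an RNA and less of that RNA per cell cannot be told apart.

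Of 5827 genes tested, 441 (7.57%) were higher with rapamycin than at saturation and 463 (7.95%) were lower, by edgeR's quasi-likelihood test at an adjusted p of 0.05 (Benjamini-Hochberg over all genes). The other 4923 did not pass, which does not show that they were alike. With 1 rapamycin library the spread comes from the saturated and log-phase pairs, which nothing in the labels says are separate cultures, so p-values measure the spread between these libraries only. Set against log phase, 863 genes (14.8%) rose and 669 (11.5%) fell with rapamycin, while 1626 (27.9%) rose and 1460 (25.1%) fell at saturation. Both of these comparisons share the log-phase libraries. With plain library totals instead of TMM, the median of all genes in the direct comparison was 0.68 instead of 0.05, and 1797 genes were called higher and 266 lower. The count of calls was 1478 without saturated replicate 1 and 2120 without saturated replicate 2. In those 2 fits the spread came from the log-phase pair alone, which differed less within itself than the saturated pair (median absolute log2 difference 0.24 and 0.43). Counts of calls from them, here and per list, therefore do not measure how far calls depend on a saturated replicate. Counts per list in the direct comparison are to be read against the 7.57% higher and 7.95% lower of all genes.

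The genes furthest above saturation after rapamycin encode membrane transporters, respiratory and peroxisomal enzymes, a chaperone and a subunit of ribonucleotide reductase. A translation elongation factor and a steryl ester hydrolase were also among them. PMA2 (YPL036W, chromosome XVI, 482843 to 485686 in R64), an isoform of the plasma-membrane proton pump, had 599 CPM with rapamycin, 13.6 and 42.7 CPM at saturation and 22.2 and 26.9 CPM in log phase. Only the rapamycin library stood high among these 5, and the log2 difference from saturation was 4.60 ± 0.54 (SE; adjusted p = 0.00275). It was 3.79 without saturated replicate 1 and 5.52 without replicate 2. HXT2, a high-affinity hexose transporter, had 84.2 CPM with rapamycin, 4.17 and 3.77 CPM at saturation and 207 and 134 CPM in log phase. Here log phase was highest and the log2 difference of 4.36 ± 0.43 (adjusted p = 0.00134) came with a fall of 5.39 on the log2 scale at saturation. SSA3, a stress-induced Hsp70 chaperone, had 1078 CPM with rapamycin, 53.4 and 87.9 CPM at saturation and 46.7 and 41.7 CPM in log phase.

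NDE2, an external mitochondrial NADH dehydrogenase, had 244 CPM with rapamycin against 9.74 and 21.4 CPM at saturation, and its log2 difference of 4.16 was 3.49 without saturated replicate 1. SHH3 and SDH9, relatives of succinate dehydrogenase subunits, had 163 and 123 CPM with rapamycin against at most 13.1 CPM in either saturated library. POT1, the thiolase of peroxisomal fatty acid oxidation, had 29.1 CPM with rapamycin against 0.556 and 5.02 CPM at saturation, and its log2 difference of 4.24 ± 0.87 was 2.51 without saturated replicate 1. The rule that chose these genes required a rapamycin value above both saturated ones. HEF3, a second copy of translation elongation factor 3, had 641 CPM with rapamycin, 46.5 and 66.6 CPM at saturation and 13.7 CPM in each log-phase library. The remaining genes among the 12 with the largest positive differences were the steryl ester hydrolase YEH1, the phosphate transporter PHO84, the ribonucleotide reductase subunit RNR4 and the aquaporin AQY1, with log2 differences of 3.85, 3.61, 3.58 and 3.47. That of AQY1 was 2.69 without saturated replicate 1. Short reads were counted by a tool not given in the sources used here, so near-identical copies (PMA1 and PMA2, YEF3 and HEF3, PDC1 and PDC5, HXT6 and HXT7, IMD2 and IMD3, and the paired ribosomal protein genes) may trade reads. PHO84 also overlaps a noncoding gene, and the strand of counting is not known here.

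The genes furthest below saturation were led by PDC5 (YLR134W, chromosome XII, 410723 to 412414), a pyruvate decarboxylase isoform known to be induced when thiamine is short. It had 30.1 CPM with rapamycin, 49040 and 30270 CPM at saturation and 36.6 and 45.0 CPM in log phase. The rapamycin library thus lay beside log phase and far below both saturated libraries, with a log2 difference of -10.36 ± 0.95 (adjusted p = 0.00134). THI4 (YGR144W, chromosome VII, 780399 to 781379), which makes the thiazole ring of thiamine, had 6.99 CPM with rapamycin, 3431 and 2413 CPM at saturation and 3.16 and 6.58 CPM in log phase. Its log2 difference was -8.70 ± 0.73. The low-affinity glucose transporter HXT1 (YHR094C, chromosome VIII, 290913 to 292625) had 54.7 CPM with rapamycin, 2860 and 2592 CPM at saturation and 364 and 453 CPM in log phase. All 3 groups were separate for HXT1, with rapamycin lowest, and the log2 difference was -5.64 ± 0.53.

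SPI1, a cell-wall protein of stationary cells, had 124 CPM with rapamycin, 5471 and 5679 CPM at saturation and 10.1 and 26.3 CPM in log phase. It lay between the other groups, as did the arrestin-like ROG3 (77.5 CPM with rapamycin, 3883 and 2600 CPM at saturation) and EGO4 (34.5 CPM with rapamycin, 4170 and 1511 CPM at saturation). The log2 difference of EGO4 was -6.37, and -5.47 without saturated replicate 1. The permease gene THI73 had 14.8 CPM with rapamycin against 1027 and 202 CPM at saturation, a difference of -5.38 that was -3.79 without saturated replicate 1. The sphingoid base transporter RSB1 had 3.31 CPM with rapamycin, 145 and 134 CPM at saturation and 4.26 and 3.84 CPM in log phase. NRS1 had 12.4 CPM with rapamycin against 441 and 521 CPM at saturation. Few reads limit 3 more. The septin gene SPR28, made at sporulation, had no reads with rapamycin against 28 and 22 at saturation. Its ratio of levels was 0, with an exact 95% counting interval of 0 to 0.0412. SET6 had 1 read with rapamycin against 295 and 43, a ratio of levels of 0.00159 with an exact 95% counting interval of 4.02e-05 to 0.00894, and it overlaps ATG29. FCY22, of the purine-cytosine permease family, had 1 read with rapamycin against 24 and 25, a ratio of 0.0110 (0.000273 to 0.0642). Intervals cover counting error only.

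**Figure D1:**
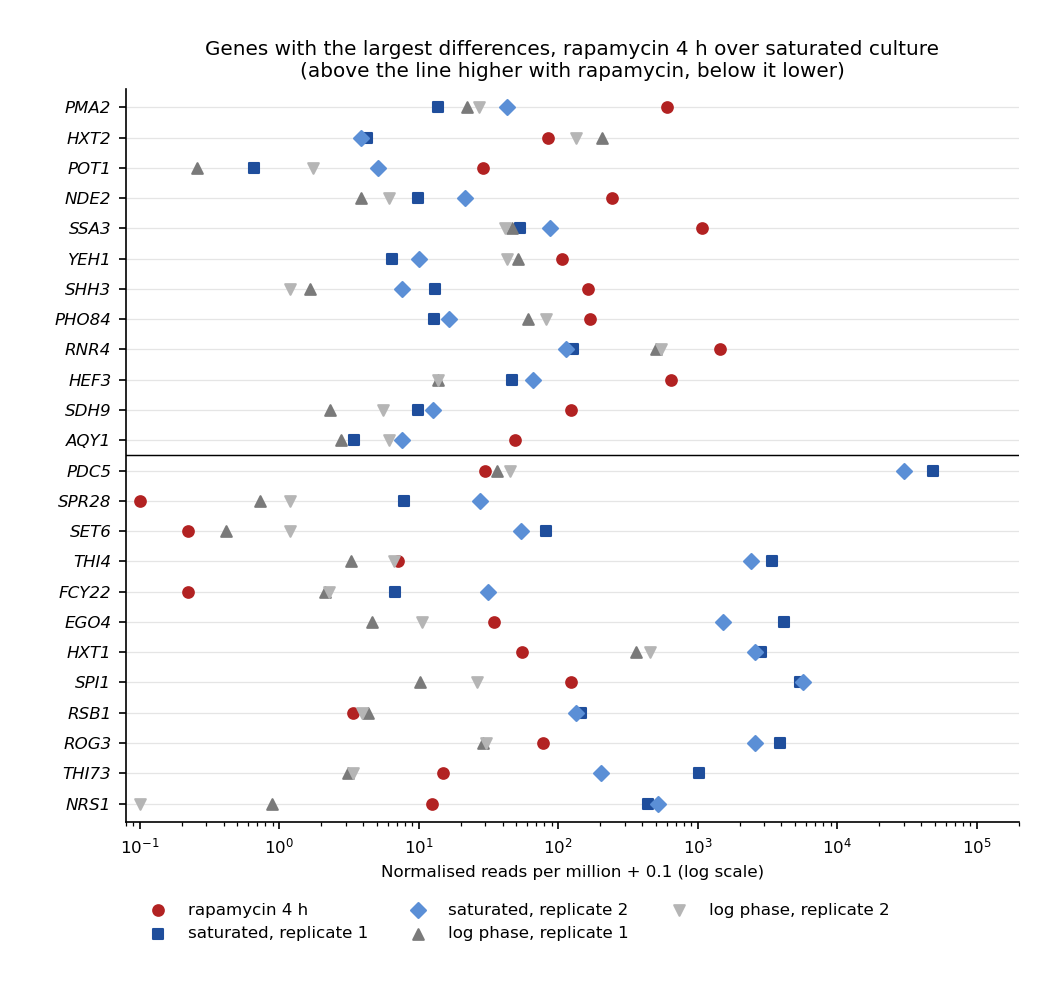
Normalised CPM plus 0.1 on a log axis for the 12 genes furthest above and the 12 furthest below saturation after 4 h of rapamycin, 1 point per library: rapamycin (1), saturated (2) and log phase (2). PDC5 and THI4 lie with log phase in the rapamycin library and far higher in both saturated ones, while PMA2 is high in the rapamycin library alone.

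What both states shared with or lacked from each other was read against log phase, with gene sets chosen by these same values and given as a description. 14 genes were at least 3 log2 higher at saturation and within 0.5 log2 of log phase with rapamycin, and 1 gene was lower in that way. Beside PDC5 and RSB1, CIP1, an inhibitor of cyclin-dependent kinase, had 20.7 CPM with rapamycin, 797 and 461 CPM at saturation and 23.0 and 23.6 CPM in log phase. TOS3, a kinase that activates Snf1, had 23.9 CPM with rapamycin, 659 and 315 CPM at saturation and 15.0 and 23.6 CPM in log phase, a direct log2 difference of -4.36 that was -3.74 without saturated replicate 1. HBN1 (3.56 CPM with rapamycin, 135 and 132 CPM at saturation) and CSS1 (0.859 CPM with rapamycin, 26.1 and 27.6 CPM at saturation) followed the same order. Under these rules IMD2, an IMP dehydrogenase of guanine nucleotide synthesis, was the single gene lost at saturation alone. It had 23.8 CPM with rapamycin, 0.556 and 1.26 CPM at saturation and 33.8 and 30.1 CPM in log phase. The saturated values are 2 and 1 reads, and the ratio of levels was 34.8 (exact 95% counting interval 11.7 to 170). The fitted log2 difference of IMD2 was 5.05, and 4.20 without saturated replicate 1.

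The reverse pattern was read at a lower threshold: 5 genes were at least 2 log2 higher with rapamycin and within 0.5 log2 of log phase at saturation, and 1 was lower. Beside PMA2 and AQY1, the glutathione transferase GTT1 had 263 CPM with rapamycin, 50.1 and 62.8 CPM at saturation and 43.9 and 82.2 CPM in log phase. RIM4, an RNA-binding protein of meiosis, had 114 CPM with rapamycin, 18.1 and 45.2 CPM at saturation and 15.8 and 36.2 CPM in log phase. BOP2 had 39.0 CPM with rapamycin, 11.96 and 13.8 CPM at saturation and 6.79 and 13.7 CPM in log phase. In each of these the rapamycin library lay above the other 4. GAS1, a glucan-remodelling enzyme of the cell wall, was the lower one, with 484 CPM with rapamycin, 1904 and 1330 CPM at saturation and 2152 and 2223 CPM in log phase. Its direct log2 difference of -1.74 (adjusted p = 0.0358) missed the threshold when either log-phase library was left out (0.0588 and 0.0578), and the 2.00 of RIM4 changed to 1.31 without saturated replicate 1 and to 2.72 without replicate 2. RIM4 also missed the threshold with a filter at 10 CPM (adjusted p = 0.0565).

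Alike in both states were 16 genes at least 3 log2 higher than log phase and under 0.5 log2 apart, and 3 lower ones. SNO1, of vitamin B6 metabolism, had 123 CPM with rapamycin, 182 and 79.1 CPM at saturation and 3.94 and 3.29 CPM in log phase. CSR2, an arrestin-related protein, had 316 CPM with rapamycin, 263 and 404 CPM at saturation and 9.62 and 17.5 CPM in log phase. The spore wall gene SPS100 had 145 CPM with rapamycin, 55.1 and 256 CPM at saturation and 1.58 and 0.548 CPM in log phase. For SNO1, CSR2 and SPS100, and likewise for GRE1, MLG1 and ISF1, the rapamycin value lay between the saturated replicates. The direct log2 difference ran, without replicate 1 and without replicate 2, from -0.84 to 1.47 for SPS100, from -0.78 to 0.89 for ISF1, from -0.87 to 0.79 for GRE1 and from -1.05 to 0.79 for MLG1, and it was 0.62 for SNO1 without replicate 1. Among the 3 that fell alike, URA1, dihydroorotate dehydrogenase, had 84.3 CPM with rapamycin, 86.5 and 91.7 CPM at saturation and 915 and 817 CPM in log phase. FUR1, which salvages uracil, had 23.8 CPM with rapamycin, 26.4 and 16.3 CPM at saturation and 224 and 190 CPM in log phase. The cell-wall mannoprotein CWP1 had 21.1 CPM with rapamycin, 17.8 and 25.1 CPM at saturation and 330 and 678 CPM in log phase.

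Moving apart, 6 genes rose with rapamycin and fell at saturation and 4 did the reverse, each by at least 1 log2. Both small subunits of ribonucleotide reductase, which makes deoxynucleotides for DNA synthesis, were among the 6. RNR4 had 1461 CPM with rapamycin, 129 and 114 CPM at saturation and 507 and 543 CPM in log phase, and RNR2 had 1067 CPM with rapamycin, 133 and 131 CPM at saturation and 470 and 551 CPM in log phase. PHO84 had 171 CPM with rapamycin, 12.8 and 16.3 CPM at saturation and 60.8 and 81.7 CPM in log phase. The dicarboxylic amino acid permease DIP5 had 677 CPM with rapamycin, 68.4 and 81.6 CPM at saturation and 325 and 268 CPM in log phase. The ferric reductase FRE1 and YEH1 kept the same order of groups, with direct log2 differences of 2.41 and 3.85. In the opposite direction, FSH1, a serine hydrolase, had 30.1 CPM with rapamycin, 1366 and 740 CPM at saturation and 128 and 93.2 CPM in log phase. FCY21, of the purine-cytosine permease family, had 6.26 CPM with rapamycin, 93.5 and 144 CPM at saturation and 40.9 and 48.8 CPM in log phase. HXT1 and HEM12, of heme synthesis, completed that set with direct log2 differences of -5.64 and -2.11.

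**Figure D2:**
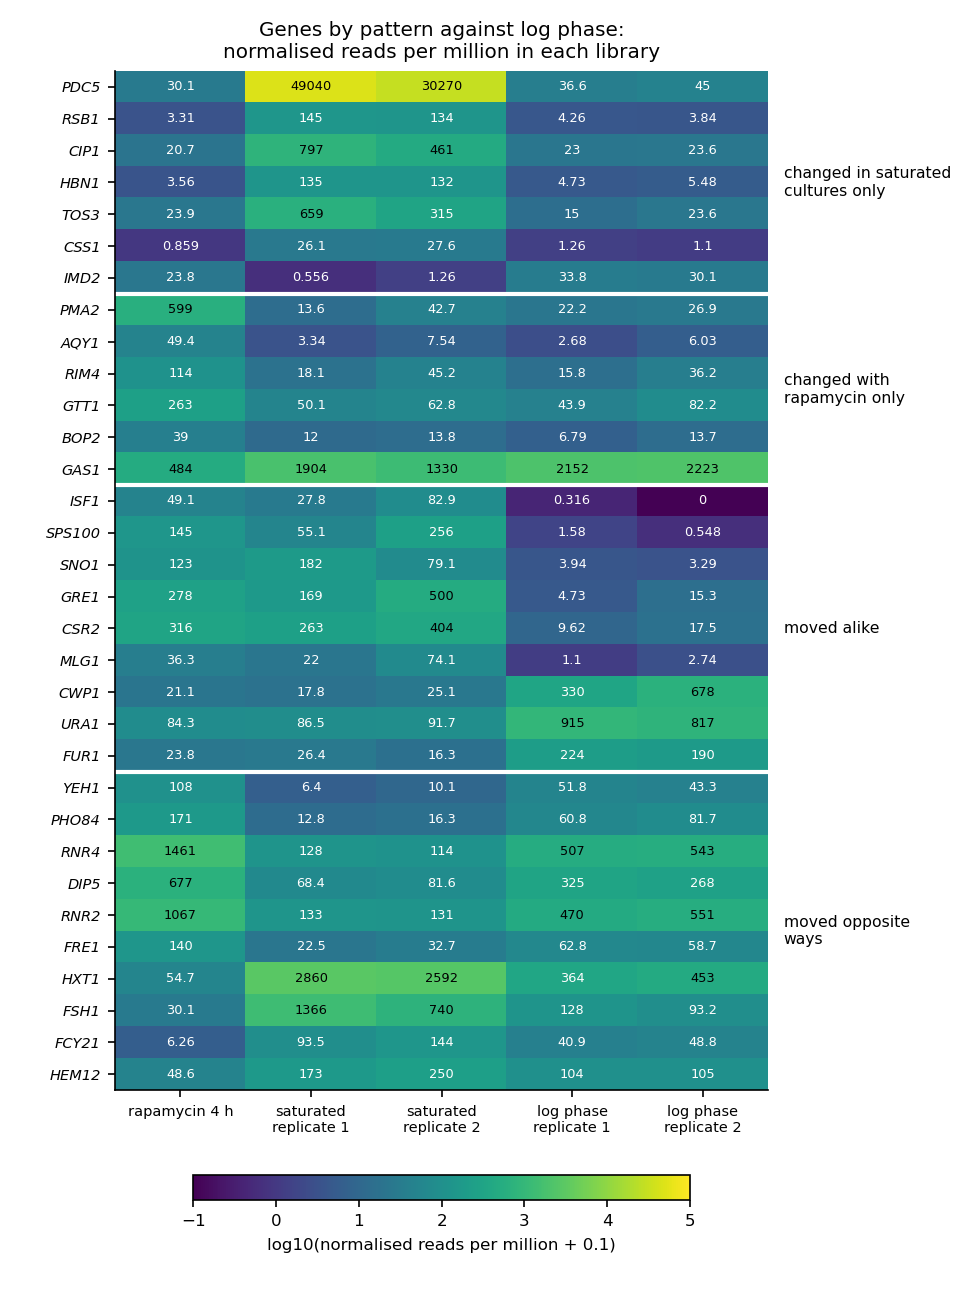
Normalised CPM (log10 colour scale) of up to 6 genes each way of each pattern, from left to right in the rapamycin library, 2 saturated libraries and 2 log-phase libraries. Blocks show genes changed at saturation only, with rapamycin only, alike in both and in opposite directions; genes were chosen by these values.

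The fall of the protein synthesis machinery was common to both states, and where a gene differed between them it was mostly the lower at saturation. Of 138 cytosolic ribosomal protein genes, 132 fell with rapamycin and 136 at saturation against log phase, with median log2 values of -2.14 and -2.95. Directly compared, 30 were higher with rapamycin than at saturation and none was lower, at a median log2 difference of 0.76. The count was 81 without saturated replicate 1, 40 without replicate 2 and 99 with plain library totals. Together they took 4.17% of gene reads with rapamycin, 1.78% and 1.14% at saturation and 16.6% and 14.6% in log phase. RPS28B had 86.1 CPM with rapamycin, 18.4 and 18.8 CPM at saturation and 342 and 288 CPM in log phase, and the log2 difference was 2.21 ± 0.33 (adjusted p = 0.00541). RPL2A had 228 CPM with rapamycin, 49.5 and 50.2 CPM at saturation and 1203 and 1083 CPM in log phase. In both genes the 3 groups were separate, with rapamycin between the others. RPS0A and ASC1 followed at 1.90 and 1.89 log2, and the ASC1 intron holds SNR24, a small nucleolar RNA gene.

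Among 70 ribosome biogenesis genes, which process and assemble ribosomal RNA, 54 fell with rapamycin and 62 at saturation, and 10 were higher with rapamycin in the direct comparison (none lower). That count was 20 higher and 7 lower without saturated replicate 2, and 3 higher by DESeq2. UTP10, of the small-subunit processome, had 287 CPM with rapamycin, 94.3 and 79.1 CPM at saturation and 741 and 576 CPM in log phase. The RNA helicase DBP2 had 136 CPM with rapamycin, 47.6 and 33.9 CPM at saturation and 355 and 348 CPM in log phase. MAK16 had 19.4 CPM with rapamycin against 2.78 and 10.1 CPM at saturation, and its difference of 2.07 was 0.93 without saturated replicate 1, where it missed the threshold (adjusted p = 0.222). RRP1 (log2 difference 1.75) was the other of the 4 with the largest differences, at 2.42 without saturated replicate 1 and past the threshold neither without log-phase replicate 1 (adjusted p = 0.0518) nor by DESeq2 (0.0745). Of 21 subunits of RNA polymerases I and III, 9 fell with rapamycin and 14 at saturation. RPA43, a polymerase I subunit, had 30.2 CPM with rapamycin, 6.68 and 3.77 CPM at saturation and 136 and 104 CPM in log phase, a direct log2 difference of 2.35 that was 2.97 without saturated replicate 1. RPA14, of the same enzyme, ran the other way at 26.6 CPM with rapamycin against 74.3 and 92.9 CPM at saturation, and it overlaps YDR157W.

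Most translation factors fell in both states, with 27 of 38 lower than log phase after rapamycin and 30 at saturation. In the direct comparison 3 were higher with rapamycin and 1 lower, where 7.57% of all genes were higher and 7.95% lower. The largest of the 3 was HEF3 at 3.54, which rose over log phase in both states, by 5.54 with rapamycin and 2.01 at saturation. HYP2, the translation factor eIF5A, had 597 CPM with rapamycin, 134 and 187 CPM at saturation and 2167 and 1916 CPM in log phase, a direct log2 difference of 1.91 ± 0.39. TIF1, a copy of the helicase eIF4A, had 47.4 CPM with rapamycin against 18.4 and 8.79 CPM at saturation, and SUI3, of the initiation factor eIF2, had 141 CPM with rapamycin against 413 and 295 CPM. The log2 difference of TIF1 was 1.64, and 2.41 without saturated replicate 1. SUI3, the 1 called lower, missed the threshold when log-phase replicate 1 or 2 was left out (adjusted p = 0.0765 and 0.0804) and with plain library totals (0.148). Mitochondrial ribosomal proteins did not follow: none of 72 was called in rapamycin over log phase, and in the direct comparison 1 was higher (MRPS16, 1.63) and 2 lower (MRPS17 at -1.90 and RSM18 at -1.36, the last of which missed the threshold when log-phase replicate 1 or 2 was left out, at 0.0601 and 0.0690). Their median was -0.29, and 0.34 with plain library totals, where that of all genes was 0.68. By DESeq2 none of the 72 was higher and 1 was lower.

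**Figure D3:**
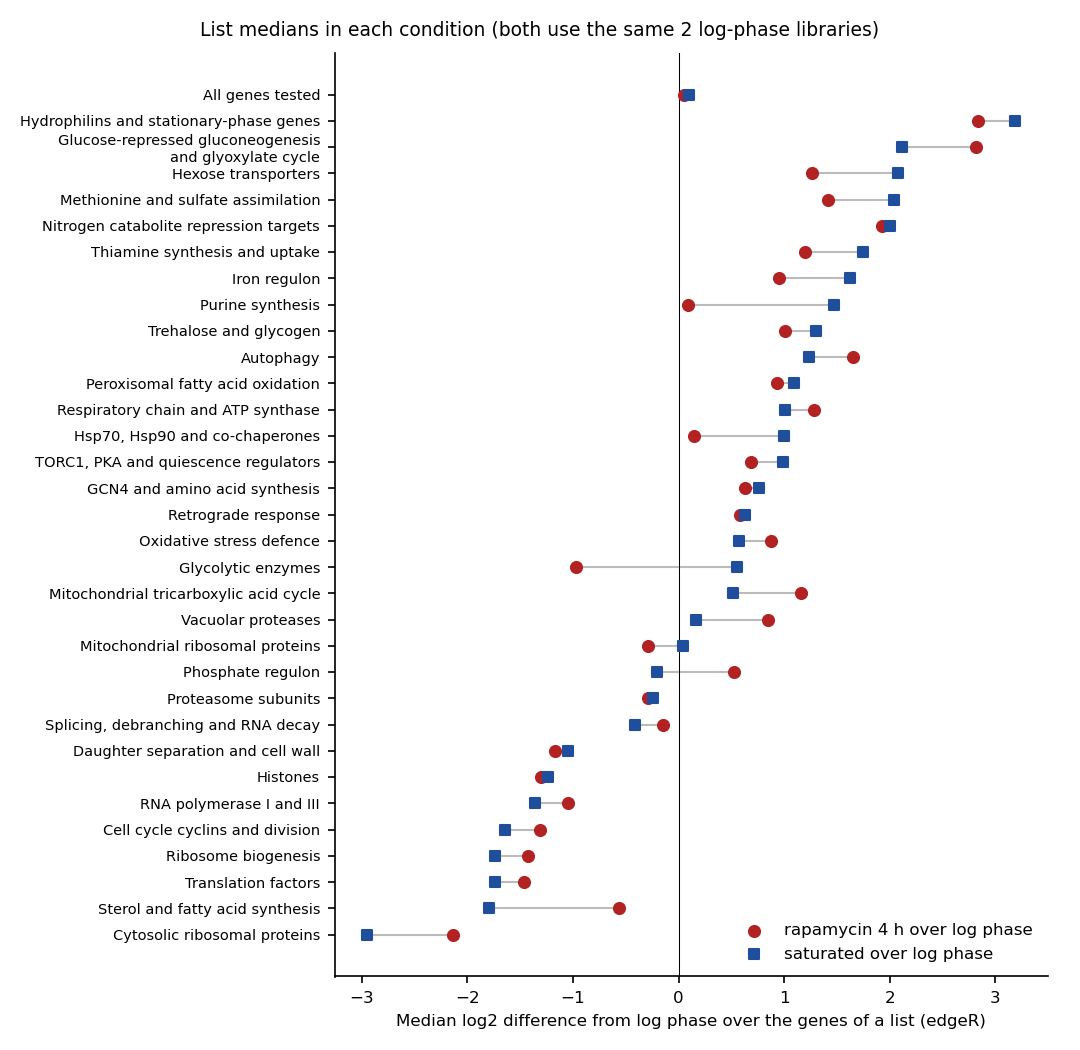
Median log2 difference from log phase of each gene list, with rapamycin at 4 h as circles and saturated culture as squares. Ribosomal protein genes lie at -2.14 with rapamycin and -2.95 at saturation, and the sterol and fatty acid genes at -0.56 and -1.80; both share the log-phase libraries.

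Cell cycle genes fell in both states as well. Of 34 cyclins, replication and division genes, 19 fell with rapamycin and 24 at saturation, while in the direct comparison 10 were higher with rapamycin and 2 lower, and 16 were higher without saturated replicate 2. The mitotic cyclin CLB2 had 21.6 CPM with rapamycin, 2.50 and 2.51 CPM at saturation and 117 and 116 CPM in log phase (direct log2 difference 3.09 ± 0.42, adjusted p = 0.00422). CHS2, the chitin synthase of the septum, had 49.4 CPM with rapamycin, 5.84 and 6.28 CPM at saturation and 203 and 196 CPM in log phase. For CLB2 and CHS2 the rapamycin library was intermediate, whereas RNR2 and RNR4 were highest there. All 4 ribonucleotide reductase genes were called higher with rapamycin, RNR1 at 2.10 and RNR3 at 1.59. Those called lower were PCL9 (7.61 CPM with rapamycin against 32.8 and 17.6 CPM) and ASE1 (84.9 CPM with rapamycin against 348 and 185 CPM). Of 11 histone genes, 7 fell in each state and only HTA2 passed directly, with 85.6 CPM with rapamycin against 28.7 and 27.6 CPM at saturation.

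Sterol and fatty acid synthesis had the highest median of the 32 lists in the direct comparison, 1.08 against 0.05 over all genes. Against log phase 9 of 31 fell with rapamycin and 23 at saturation. Directly, 14 were higher with rapamycin and none was lower, a count that ran to 24 with plain library totals and to 10 when either log-phase library was left out. ERG5, a late desaturase of ergosterol synthesis, had 326 CPM with rapamycin, 41.7 and 47.7 CPM at saturation and 205 and 179 CPM in log phase, and the log2 difference was 2.88 ± 0.31 (adjusted p = 0.00208). ERG25, a methyl sterol oxidase, had 569 CPM with rapamycin, 62.6 and 118 CPM at saturation and 392 and 407 CPM in log phase. These were highest with rapamycin, while the methyltransferase ERG6 had 200 CPM with rapamycin, 28.9 and 40.2 CPM at saturation and 451 and 416 CPM in log phase. ERG2, at 104 CPM with rapamycin against 22.3 and 20.1 CPM at saturation, kept the order of ERG6. ACC1, acetyl-CoA carboxylase, and the elongase ELO2 were each called at 1.64. The desaturase OLE1, known to need oxygen, had 354 CPM with rapamycin against 534 and 975 CPM at saturation and was not called.

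Genes of sugar uptake split by transporter. Among 13 of 17 hexose transporters and sensors with enough reads to test, 3 were higher with rapamycin and 4 lower. HXT3, a low-affinity transporter, had 2110 CPM with rapamycin, 10090 and 14770 CPM at saturation and 500 CPM on average in log phase. HXT4, of higher affinity, had 1118 CPM with rapamycin, 132 and 262 CPM at saturation and 21.9 CPM on average in log phase. HXT1 and HXT3 were therefore higher at saturation and HXT2 and HXT4 higher with rapamycin. The glucose sensor RGT2 was lower at -1.29, with 78.3 CPM with rapamycin against 189 and 193 CPM at saturation. HXT6 and HXT7 are near-identical, and they differed in opposite directions (-2.80 and 2.79), so neither value is secure. The HXT6 value was -3.75 without saturated replicate 1 and -1.91 without replicate 2.

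The 22 genes listed as glycolytic include the pyruvate decarboxylase PDC5 and the alcohol dehydrogenase ADH1, which act in fermentation after glycolysis. Together they took 7.30% of gene reads with rapamycin, 17.3% and 24.9% at saturation and 11.5% and 13.7% in log phase. PDC5 alone had 245 reads with rapamycin and 176263 and 24103 at saturation, so these shares are not of glycolysis alone. None of 22 was called higher with rapamycin and 3 were lower, at a median log2 difference of -1.31. The number lower was 16 without saturated replicate 1, 11 without replicate 2 and 11 by DESeq2. ENO1, an enolase, had 1620 CPM with rapamycin, 18550 and 35350 CPM at saturation and 446 and 1155 CPM in log phase (log2 difference -4.06 ± 0.86, adjusted p = 0.0186; -3.45 without saturated replicate 2). The alcohol dehydrogenase ADH1 had 2768 CPM with rapamycin, 12640 and 20330 CPM at saturation and 7325 and 11100 CPM in log phase. PDC5 was the third. TDH1, a glyceraldehyde-3-phosphate dehydrogenase chosen after its values were seen, had 2022 CPM with rapamycin against 19120 and 25270 CPM at saturation, a difference of -3.46 that did not pass.

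Genes of respiration were more often higher than lower with rapamycin. Of 38 genes of the respiratory chain and ATP synthase, 29 rose with rapamycin over log phase and 20 at saturation, and directly 7 were higher and 3 lower. Without saturated replicate 2 these counts were 16 and 6, and without log-phase replicate 1 they were 3 and 3. COX6, a cytochrome oxidase subunit, had 209 CPM with rapamycin, 54.2 and 85.4 CPM at saturation and 74.9 and 52.1 CPM in log phase. QCR8, of the cytochrome bc1 complex, had 136 CPM with rapamycin, 524 and 854 CPM at saturation and 59.0 and 53.2 CPM in log phase, and COX13 had 185 CPM with rapamycin against 609 and 727 CPM at saturation. QCR2, of the same complex as QCR8, was higher at 1.38, so subunits of 1 complex differed in both directions. Among 18 genes of the mitochondrial tricarboxylic acid cycle 5 were higher with rapamycin and none lower, at a median of 0.87, and 11 were higher without saturated replicate 2 and 3 when either log-phase library was left out. Aconitase, ACO1, had 1720 CPM with rapamycin, 266 and 320 CPM at saturation and 2063 and 2522 CPM in log phase. SDH2, the iron-sulfur subunit of succinate dehydrogenase, had 506 CPM with rapamycin, 126 and 134 CPM at saturation and 48.0 and 59.8 CPM in log phase. LSC2 and FUM1 were called at 1.40 and 1.31, and FUM1 missed the threshold without saturated replicate 1 (adjusted p = 0.0564) and without log-phase replicate 1 or 2 (0.0699 and 0.0524).

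Of 21 genes of gluconeogenesis and the glyoxylate cycle, which glucose represses, 13 rose in each state over log phase, and 2 were higher and 1 lower directly. CAT8, the activator of many of these genes, had 199 CPM with rapamycin, 12.5 and 40.2 CPM at saturation and 13.1 and 20.3 CPM in log phase, and its difference of 3.12 was 2.29 without saturated replicate 1 and 4.06 without replicate 2. The succinate-fumarate carrier SFC1 had 21.1 CPM with rapamycin against 5.56 and 8.79 CPM at saturation, and REG2, a regulator of the phosphatase Glc7, had 10.3 CPM with rapamycin against 30.9 and 55.3 CPM. SFC1 missed the threshold without saturated replicate 1 (adjusted p = 0.0969), in a fit of 3 groups (0.0760) and by DESeq2 (0.0588), and REG2 in the fit of 3 groups (0.0526) and with plain library totals (0.0861). Counts for the list were 9 higher and 5 lower without saturated replicate 2. In peroxisomal fatty acid oxidation 4 of 22 were higher with rapamycin and none lower, among them POT1, PXA2 (1.64) and FAA2 (1.54, overlapping BUD25). FAA2 had an adjusted p of 0.0599 by DESeq2. Over all genes tested 7.57% were higher and 7.95% lower in the direct comparison. Of 21 trehalose and glycogen genes, the debranching enzyme GDB1 (2.01) and PGM1 (1.31) were higher, and PGM1 missed the threshold without log-phase replicate 1 (adjusted p = 0.0525) and by DESeq2 (0.0593).

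Targets of nitrogen catabolite repression, which GATA activators turn on when TOR is inhibited or good nitrogen sources run out, rose in both states but not evenly. Of 37 tested, 21 rose with rapamycin over log phase and 23 at saturation, with medians of 1.93 and 2.00 log2. Directly, 7 were higher with rapamycin and 6 lower. These counts were 7 and 12 without saturated replicate 1, 12 and 11 without replicate 2, and 13 and 4 with plain library totals. The proline oxidase PUT1 had 100 CPM with rapamycin, 1076 and 1221 CPM at saturation and 7.10 and 4.93 CPM in log phase, and UGA4, the permease for 4-aminobutyrate, had 21.5 CPM with rapamycin, 155 and 185 CPM at saturation and 2.05 and 3.84 CPM in log phase. Their log2 differences were -3.52 ± 0.43 (adjusted p = 0.00345) and -2.98 ± 0.40 (0.00397). The arginase CAR1 (-2.37), the ammonium permease MEP3 (-2.27) and the permease AGP1 (-1.56) were called lower as well.

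Above saturation stood the general amino acid permease GAP1, with 799 CPM with rapamycin, 114 and 230 CPM at saturation and 67.1 and 89.4 CPM in log phase. The urea permease DUR3 had 180 CPM with rapamycin, 29.2 and 31.4 CPM at saturation and 10.9 and 20.8 CPM in log phase. GDH3, a glutamate dehydrogenase, had 732 CPM with rapamycin against 55.9 and 144 CPM at saturation, a difference of 2.91 that was 2.32 without saturated replicate 1 and 3.78 without replicate 2. The allantoin genes DAL2 (1.76) and DAL5 (1.45) were called higher, as were LEE1 (2.35) and CAR2 (1.55). Permeases and breakdown enzymes stood on both sides. Of 50 genes of amino acid synthesis under GCN4, 2 were higher and 2 lower, a smaller share each way than the 7.57% and 7.95% of all genes. The higher ones assimilate ammonium into glutamate: GLT1, glutamate synthase, had 2698 CPM with rapamycin, 749 and 406 CPM at saturation and 2157 and 1914 CPM in log phase, and GDH1 had 2475 CPM with rapamycin, 568 and 976 CPM at saturation and 1022 and 747 CPM in log phase. ARG8 and SER2 were lower at -1.76 and -1.68, and neither passed by edgeR with plain library totals (adjusted p = 0.0681 and 0.0525).

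Methionine and sulfate assimilation genes lay below saturation, at a median of -1.03. None of 23 was higher with rapamycin and 6 were lower, 12 without saturated replicate 1 and 11 without replicate 2 (where 1 was higher in each case). With plain library totals 3 were higher and 3 lower. STR3, of methionine synthesis, had 275 CPM with rapamycin, 2050 and 1043 CPM at saturation and 33.1 and 46.6 CPM in log phase. MET16, of sulfate reduction, had 124 CPM with rapamycin, 717 and 358 CPM at saturation and 27.4 and 17.0 CPM in log phase. The rapamycin value was intermediate for both. The strain lacks MET17, so sulfide is not fixed by that route in any of these groups. Of 21 genes of purine synthesis, CTP synthesis and one-carbon supply, 4 were higher with rapamycin and 8 lower, at a median of -1.25.

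The other 9 of these 21 purine, CTP and one-carbon genes were not called. MTD1, a folate enzyme, had 122 CPM with rapamycin, 1119 and 891 CPM at saturation and 68.0 and 97.0 CPM in log phase, and SHM2, serine hydroxymethyltransferase, had 608 CPM with rapamycin, 4402 and 3663 CPM at saturation and 484 and 827 CPM in log phase. ADE1, ADE2, ADE8, ADE12, ADE13 and ADE17 were called lower at -1.70 to -2.02. The CTP synthase URA7 had 53.5 CPM with rapamycin, 11.1 and 11.3 CPM at saturation and 465 and 395 CPM in log phase. IMD3 (2.14) and GUA1 (1.32), of guanine nucleotide synthesis, were called higher beside IMD2.

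Thiamine genes held some of the largest differences from saturation. Of the 19 of 21 that could be tested, none was higher with rapamycin and 7 were lower, while 13 rose at saturation over log phase and 2 did with rapamycin. The number lower was 4 with plain library totals, with 1 higher. THI4 and THI73 led, and THI7, the thiamine transporter, had 114 CPM with rapamycin, 896 and 298 CPM at saturation and 52.4 CPM on average in log phase (-2.40). PET18, with 22.1 CPM with rapamycin against 212 and 74.1 CPM at saturation, had a difference of -2.74 that was -1.77 without saturated replicate 1. THI5 and THI12, members of a family of near-identical genes, had too few reads to test. In THI4, THI73, THI7 and PET18 saturated replicate 1 was the higher of the pair.

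Iron and phosphate genes moved in both directions. Of 23 genes of the iron regulon 3 were higher with rapamycin and 5 lower, and 9 were lower when either saturated library was left out. The siderophore transporter SIT1 had 129 CPM with rapamycin, 18.1 and 35.2 CPM at saturation and 54.3 and 98.7 CPM in log phase, and FTR1, the high-affinity iron permease, was higher at 1.96. ISU1, a scaffold for iron-sulfur clusters, had 159 CPM with rapamycin, 1194 and 726 CPM at saturation and 78.9 and 80.0 CPM in log phase. The cell-wall protein FIT3 had 37.7 CPM with rapamycin against 115 and 661 CPM at saturation, and its difference ran from -4.15 without replicate 1 to -1.54 without replicate 2. FIT3 missed the threshold by DESeq2 (adjusted p = 0.0607) and with plain library totals (0.0530). In the phosphate regulon of 19 genes 2 were higher and 3 lower. PHM8, a nucleotide phosphatase, had 264 CPM with rapamycin, 3304 and 2314 CPM at saturation and 19.7 and 35.1 CPM in log phase, opposite to the transporters PHO84 and PHO89 (2.87). PHO89 missed the threshold without saturated replicate 1 (2.24, adjusted p = 0.0649) and by DESeq2 (0.0542). GPP2, a glycerol phosphatase, was lower at -3.12.

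Hydrophilin and stationary-phase genes mostly rose in both states. Of 27 hydrophilin and stationary-phase genes, 22 rose with rapamycin and 22 at saturation over log phase, with medians of 2.84 and 3.19. Directly, 4 were higher with rapamycin and 3 lower, counts that were 5 and 12 without saturated replicate 1 and 8 and 8 without replicate 2. HSP30, a plasma-membrane stress protein, had 908 CPM with rapamycin, 26930 and 16960 CPM at saturation and 16.9 and 14.3 CPM in log phase. YGP1, a secreted glycoprotein of stationary cells, had 714 CPM with rapamycin, 7455 and 7310 CPM at saturation and 263 and 280 CPM in log phase. HSP30 and YGP1 were intermediate, and SSA3 was highest with rapamycin, as were SPG4 (93.2 CPM with rapamycin against 5.56 and 17.6 CPM at saturation) and the hydrophilin SIP18 (111 CPM with rapamycin against 8.90 and 28.9 CPM). Of 22 genes of Hsp70, Hsp90 and their partners, 6 rose and 2 fell with rapamycin over log phase, and 12 rose and 5 fell at saturation. Directly, none of these 22 was higher and 2 were lower, SSE2 at -2.27 and HSP10 at -1.61, where 7.95% of all genes were lower. The Hsp70 gene SSA3, higher with rapamycin at 3.96, was counted with the stationary-phase genes and is not among the 22. With plain library totals 5 were higher and 0 lower.

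Of 24 genes of oxidative stress defence, 9 rose and 3 fell with rapamycin over log phase, 11 rose and 5 fell at saturation, and directly 1 was higher and 5 lower. Apart from GTT1, GTT2 had 17.7 CPM with rapamycin, 124 and 116 CPM at saturation and 8.52 and 7.67 CPM in log phase, so these 2 glutathione transferases differed in opposite directions. The glutaredoxin GRX1 (-1.92) and DDR48 (-1.88) were lower too. With plain library totals 8 of the 24 were higher and 2 lower.

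Most autophagy genes rose in both states. Of 25, 19 rose with rapamycin and 18 at saturation over log phase, with medians of 1.65 and 1.24, and directly 2 were higher and 1 lower. ATG8, whose product coats the autophagosome, had 84.3 CPM with rapamycin, 205 and 245 CPM at saturation and 10.6 and 8.77 CPM in log phase (-1.41 ± 0.33). ATG34 had 109 CPM with rapamycin against 40.3 and 42.7 CPM at saturation, and ATG17, a scaffold of the initiating complex, had 33.1 CPM with rapamycin against 10.8 and 15.1 CPM. Neither ATG17 nor ATG34 passed with DESeq2 (adjusted p = 0.163 and 0.0691), and ATG17 missed the threshold also without saturated replicate 1 (0.0780) and without log-phase replicate 1 (0.0799) or 2. Of 10 vacuolar proteases only APE3 was called (1.58), and of 34 proteasome subunits PRE7 (1.31) and PRE3 (1.16) were. The direct counts for autophagy, vacuolar protease and proteasome genes lie near the shares of all genes, 7.57% higher and 7.95% lower. PRE3 missed the threshold under 5 settings, which included each log-phase library and saturated replicate 1 left out and DESeq2 (adjusted p = 0.0577 to 0.0984).

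Regulators of TORC1, protein kinase A and quiescence numbered 44, of which 14 rose with rapamycin and 23 at saturation over log phase. Directly 1 was higher and 6 lower, and the counts were 2 and 9 without saturated replicate 1, 6 and 11 without replicate 2 and 11 and 2 with plain library totals. DOT6, a repressor of ribosome biogenesis genes, had 252 CPM with rapamycin, 1586 and 2459 CPM at saturation and 228 and 241 CPM in log phase (-3.004 ± 0.48, adjusted p = 0.00696). CRF1, a corepressor of ribosomal protein genes, had 30.1 CPM with rapamycin, 149 and 119 CPM at saturation and 4.73 and 7.13 CPM in log phase. DOT6 RNA was thus near log phase with rapamycin and CRF1 RNA intermediate. The other genes called were MSN2 (-1.46), IGO1 (-1.47), RTG1 (-1.54) and SIT4 (-1.19), all lower, and TPK2 (1.12), a catalytic subunit of protein kinase A, which was higher.

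In 33 genes of the cell wall and daughter separation, 3 were higher with rapamycin and 3 lower, near the 7.57% and 7.95% of all genes. EXG1, a glucanase, had 639 CPM with rapamycin, 132 and 134 CPM at saturation and 666 and 888 CPM in log phase, while CHS1, the chitin synthase of repair, had 307 CPM with rapamycin, 953 and 1501 CPM at saturation and 266 and 321 CPM in log phase. Both lay near log phase with rapamycin. Of 14 retrograde response genes, which answer mitochondrial dysfunction, 2 were higher and 1 lower, among them PDH1 at 3.14, a value that was 1.69 without saturated replicate 1 and 4.64 without replicate 2, and was not called by DESeq2 (adjusted p = 0.265). Of 29 genes of splicing, debranching and RNA decay 3 were higher and none lower, and 2 were higher by DESeq2. The 3 higher lie near the 7.57% of all genes. PRP43, the helicase that takes the spliceosome apart and releases the lariat, had 63.8 CPM with rapamycin, 17.0 and 18.8 CPM at saturation and 258 and 216 CPM in log phase. The exosome nuclease DIS3 (1.30) and PRP2 (1.20) were the others, and PRP2 missed the threshold without saturated replicate 1 (adjusted p = 0.0647), without log-phase replicate 1 or 2 (0.0841 and 0.0702) and by DESeq2 (0.141).

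**Figure D4:**
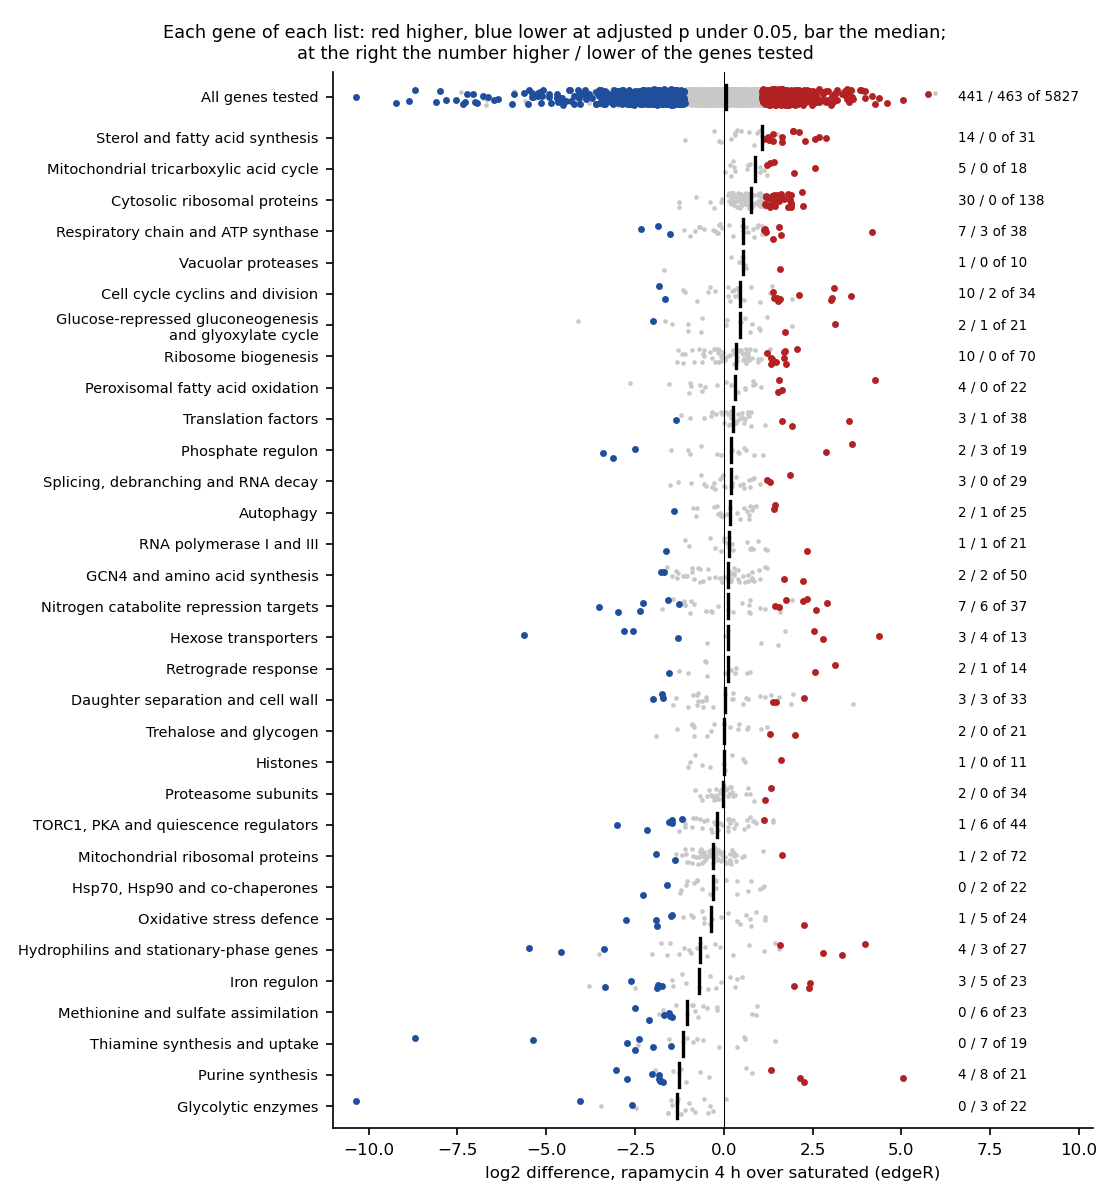
Log2 difference of rapamycin 4 h over saturated culture, 1 point per gene, for each gene list, with the number of genes called higher and lower. Sterol and fatty acid genes sit at a median of 1.08 with 14 called higher, and thiamine genes at -1.16 with 7 called lower.

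Introns took 1.56% of gene and intron reads with rapamycin, 2.90% and 2.46% at saturation and 1.28% and 1.33% in log phase. Of 270 introns with enough reads, none was higher with rapamycin relative to its host gene (0%) and 70 (25.9%) were lower, at a median log2 difference of -0.68 between both states; 95 had an unadjusted p under 0.05 in either direction by edgeR. When the differences were centred on the median intron, 6 were higher and 13 lower. Limma, without that centring, called 1 higher and 12 lower. Intron reads per 100 host reads had a median of 9.99 with rapamycin, 15.5 and 17.7 at saturation and 3.26 and 3.53 in log phase. Rapamycin was above log phase and below saturation in this measure. An intron denser than its host per base, by the deposited TPM, occurred 30 times with rapamycin, 70 and 74 times at saturation and 16 and 18 times in log phase. The level of intron RNA itself, scaled by gene reads, was called higher for 1 intron (0.37%) and lower for 39 (14.4%). By edgeR 81 levels had an unadjusted p under 0.05, and with limma no intron passed on level in either direction.

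ECM33, whose product is a cell-wall protein, has an intron of 330 nucleotides that carried 27.9 reads per 100 host reads with rapamycin, 193 and 231 at saturation and 1.76 and 1.99 in log phase. Per base the intron stood at 1.09 times its host with rapamycin and at 7.55 and 9.02 times at saturation. The 3 groups were separate, and the log2 difference relative to the host was -2.92 ± 0.35 (edgeR quasi-likelihood test, adjusted p = 1.53e-13). Its level was 124 CPM with rapamycin, 462 and 1186 CPM at saturation and 28.1 and 36.2 CPM in log phase, a difference of -2.72 ± 0.62 (adjusted p = 0.0241) that was -1.89 without saturated replicate 2 and missed the threshold with limma (0.0864). The host differed by 0.25 and was not called. ACT1, the actin gene, has an intron of 309 nucleotides with 2.19 reads per 100 host reads with rapamycin, 4.28 and 4.83 at saturation and 1.21 and 0.977 in log phase. Its relative difference of -1.04 ± 0.40 (adjusted p = 0.0373) missed the threshold without any one of the 4 saturated and log-phase libraries (0.0875 to 0.122), with limma (0.283) and when centred on the median intron, where it was -0.26 (0.788).

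Introns of genes that hold small nucleolar RNAs, which are cut from the excised intron, were among the furthest below saturation. The second intron of RPL7A had 363 reads per 100 host reads with rapamycin, 5025 and 6192 at saturation and 74.8 and 99.2 in log phase, and that of ASC1 had 358 with rapamycin, 4200 and 3194 at saturation and 47.0 and 42.4 in log phase. TEF4 and the second intron of RPS22B followed, at -2.66 and -2.60 log2. Whether these reads are intron or small nucleolar RNA cannot be told from the counts. Of 11 introns in 8 such hosts 10 were lower, at a median of -2.41, and without them 60 of 259 introns were lower and none higher, at a median of -0.65. SUN4, of the cell wall, had 5.26 intron reads per 100 host reads with rapamycin, 42.5 and 35.2 at saturation and 1.73 and 1.39 in log phase. ERV41 and GIM5 rest on 6 and 11 intron reads with rapamycin, and neither passed when centred on the median intron (adjusted p = 0.0943 and 0.151). GIM5 did not pass with limma (0.229), and its difference of -2.58 was -3.91 without saturated replicate 1.

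Hosts split the measures. In 105 introns of ribosomal protein genes the median was -0.62 relative to the host and 0.09 in level, while 19 of 102 tested hosts were called higher with rapamycin and none lower. In 165 other introns the median was -0.76 relative to the host and -0.98 in level, with 34 levels called lower and none higher. Of the hosts of these, 6 of 158 were higher and 15 lower. Among those lower in level, MND1 (4 reads with rapamycin against 25 and 13), LDS2 (2 against 16 and 3) and CIN2 (3 against 13 and 5) had few reads, and the ratios for LDS2 and CIN2 were 0.0567 (exact 95% counting interval 0.00640 to 0.235) and 0.0898 (0.0169 to 0.308). Without saturated replicate 1, neither LDS2 (adjusted p = 0.290) nor CIN2 (0.0508) passed, and the -4.25 of MND1 was -4.99. The introns of SNR17B, a U3 small nucleolar RNA gene, and of ECM9, MAY24, YDL012C and YJR079W were lower by level at -2.97 to -3.80. ECM9, with 10 intron reads with rapamycin and 62 and 5 at saturation, was at -2.33 by level and did not pass without saturated replicate 1. The hosts of MND1, ECM9, YDL012C and YJR079W were themselves at -4.3, -2.9, -2.9 and -3.3. Relative to these hosts the introns were at 0.03, -0.32, -0.26 and 0.40 and not called. SNR17B, LDS2 and CIN2, with hosts at -2.1, -2.6 and -1.4, were not called relative to host either. MAY24 was called lower relative to its host (-2.31), which was at -0.97 and not called.

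Introns of 4 further genes were picked after their values were seen. USV1, which encodes a stress-response transcription factor, had 35.0 intron reads per 100 host reads with rapamycin, 36.6 and 35.7 at saturation and 1.27 and 2.94 in log phase. RFA2 had 72.4 with rapamycin, 85.1 and 93.2 at saturation and 1.46 and 1.37 in log phase. Both lay far above log phase and near saturation, and their relative differences of -0.05 and -0.29 were not called (adjusted p = 0.944 and 0.680), with 95% intervals of -0.88 to 0.77 and -1.15 to 0.58. SAC6, at 9.94 with rapamycin against 30.4 and 29.0 at saturation, and the second intron of EFM5, at 17.3 with rapamycin against 49.6 and 66.7 at saturation, were lower relative to the host (-1.58 and -1.65).

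**Figure D5:**
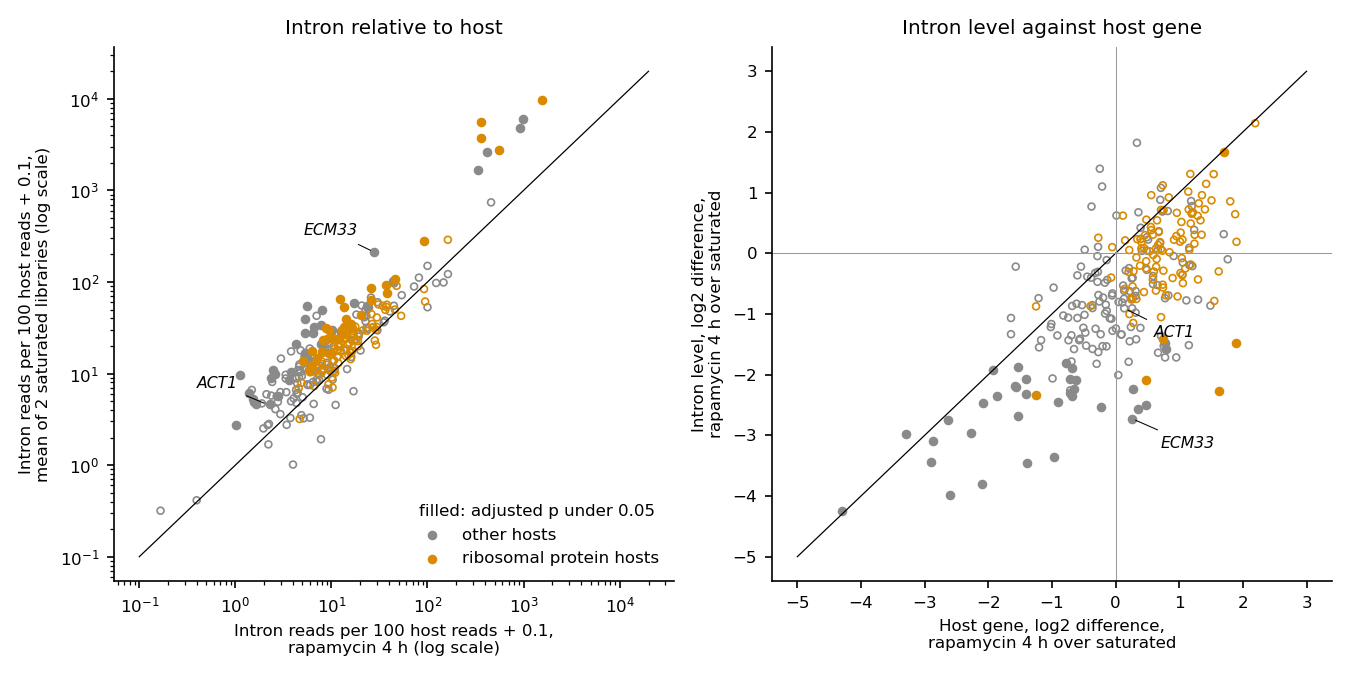
Left, intron reads per 100 host reads with rapamycin at 4 h (x) and as the mean of 2 saturated libraries (y), on log axes with 1 point per intron. Right, the log2 difference of rapamycin over saturated culture in intron level against that of the host gene, with filled points for an adjusted p under 0.05; introns of ribosomal protein genes are orange and others grey. On the left the 2 saturated libraries average above rapamycin for most introns, and the median log2 difference relative to the host is -0.68.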

How the data were processed

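For each library the authors deposited read counts and TPM of 6665 genes and 300 introns, per the file headers. The counts are whole and were taken as raw. The deposited TPM values are the authors' and served only for densities of introns over hosts. The submitters' processing notes name cutadapt 1.8, STAR 2.4 and the R64 (sacCer3) build. How reads were assigned to genes, with which annotation and whether by strand is not given in the sources used here. The design text speaks of 10 samples, and 7 were analysed here. Symbols, coordinates and overlaps come from a RefSeq gene table of the R64 assembly.

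Genes were tested with edgeR 4.0.16 (R 4.3.3; quasi-likelihood, TMM, low-count filter) in 1 fit of 7 libraries in 5 groups, two-sided, with Benjamini-Hochberg adjustment over 5827 genes at 0.05. The gene fit had 2 residual and 6.94 prior degrees of freedom. The 270 introns that reached 10 reads in any library (30 did not) were tested relative to their host, as an interaction of gene and intron columns with group, and in level, with gene-read library sizes. Prior degrees of freedom were infinite in the relative fit, which thus used 1 spread trend for all introns, and 7.50 in the level fit. Values after ± on the log2 scale are standard errors. Alternatives were limma 3.58.1 on log2 values (pseudocount 0.5), DESeq2 1.42.0, RLE scaling, plain totals, other filters, a fit of 3 groups and each replicate left out. Counts differed beyond sampling noise within the saturated pair (chi-square over its degrees of freedom 34.7) and the log-phase pair (15.7). The steps were tested on simulated data.

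The lists and genes were chosen with earlier results of these data known. Named were the 12 largest direct differences each way past the threshold (mean of at least 10 CPM, rapamycin outside the saturated range), up to 6 genes of each pattern against log phase, up to 4 called members of each list by size, the 8 largest introns each way, ECM33 and ACT1. Members named beyond 4 were chosen after their values were seen. POX18 and FEN1 were not matched, and ASP3-1, HXT11, HXT13, HXT16, HXT17, THI5 and THI12 did not pass the low-count filter. A named gene and a named intron are not reported here.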

Additional observations from a re-analysis of the deposited data

How the results depend on the processing

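No gene or intron named by rule and tested changed direction under these settings. Genes that moved alike were compared by size of difference only, and those picked after their values were seen were not checked. The balance of calls within a list could turn. With plain library totals, oxidative stress defence went from 1 higher and 5 lower to 8 and 2. The TORC1, protein kinase A and quiescence regulators went from 1 and 6 to 11 and 2. Direct calls numbered 904 (441 higher, 463 lower), 2063 with plain library totals (1797 and 266) and 735 to 2120 with 1 replicate left out (318 to 1129 higher, 414 to 991 lower); DESeq2 called 283 higher and 495 lower. Calls of rapamycin over log phase (1532) ran from 688 to 2764 with 1 replicate left out (392 to 1229 higher, 296 to 1535 lower), and 423 were lower with plain totals. Calls of saturated over log phase (3086) ran from 1990 to 3589 (998 to 1615 higher, 992 to 1974 lower). Replicate numbers pair samples by number only (correlation of replicate differences 0.18, 2 pairs), and with the replicate as a block 3343 genes were called in saturated over log phase; no block could be fitted for 1 rapamycin library. Introns relative to host (70 called) numbered 13 with limma (1 higher, 12 lower), 19 with the median intron at no change (6 higher, 13 lower) and 35 to 77 with 1 replicate left out (0 to 1 higher, 35 to 76 lower). Intron level (40 called) gave 0 with limma (0 higher, 0 lower), 23 with at least 50 reads (0 higher, 23 lower), 20 with plain totals (5 higher, 15 lower), 0 higher without hosts of small nucleolar RNAs and 36 to 96 with 1 replicate left out (1 to 12 higher, 35 to 87 lower). Over 4 scalings, 0 of 32 list medians crossed that of all genes. A change of scaling shifts every gene by nearly the same amount, so this could hardly come out otherwise and does not test the lists. Over named genes, introns and counts per list under all settings, 1852 values stayed, 208 counts or untested values moved, 96 calls no longer passed and 1 newly passed. The cause of these changes was not tested. Counts of 1019287 reads in saturated replicate 2 and a single rapamycin library limit what low genes can show.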
